A study of Mus musculus with 8 samples.

Results

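Resident-macrophage marker genes are transcripts used to recognise macrophages that live in a tissue for long periods, as opposed to monocytes that have recently entered it. The 8 genes described here are Lyve1, Folr2, F13a1, Cbr2, Trem2, Gpnmb, Vsig4 and Hpgd, chosen by symbol from the 49315 genes of the count table through the GENCODE M21 mouse annotation. Each symbol matched a single gene. RNA-Seq was performed on bone marrow-derived macrophages (BMDMs) of C57BL/6 mice, grown in IMDM with 10 ng/ml macrophage colony-stimulating factor, 10% FBS and 1% penicillin-streptomycin. With Lipofectamine as the carrier and at 25 nM per the labels, 4 cultures received a gapmeR against the lncRNA MAARS (labelled replicates 9, 11, 13 and 15) and 4 received negative control #1 (labelled 2, 5, 6 and 7). A gapmeR is an antisense oligonucleotide that directs cleavage of its target RNA. All 8 libraries share strain, culture medium and transfection, no untransfected culture was analysed here, and the labels do not give the age of the mice or say whether the cultures came from separate animals. The p-values below therefore measure the spread between these libraries, which may be technical. The question addressed was whether MAARS knockdown was accompanied by a change in these genes.

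The markers do different work. LYVE1 binds hyaluronan, a sugar polymer of the extracellular matrix, and marks macrophages that lie along vessels. FOLR2 is folate receptor beta, F13A1 is the catalytic chain of coagulation factor XIII, CBR2 is a carbonyl reductase, and HPGD is the dehydrogenase that inactivates prostaglandin E2. TREM2 is a lipid-sensing receptor that signals through the adaptor TYROBP, GPNMB is a transmembrane glycoprotein of lysosome-rich macrophages, and VSIG4 is a complement receptor best known from Kupffer cells, the macrophages of the liver. TREM2 and GPNMB also mark the lipid-associated macrophages of atherosclerotic lesions, so the set does not describe a single kind of cell.

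Total counts per library ran from 19287279 to 20567123 with control gapmeR and from 20839671 to 24541205 with MAARS gapmeR, so every knockdown library was deeper than every control. Levels are given as CPM, a count scaled to a common library total after TMM scaling, a correction for differences in library composition. Of the 13051 genes that passed edgeR's filter on low counts, 45.4% had an adjusted p under 0.05 between the MAARS gapmeR and control gapmeR groups, 21.3% higher and 24.0% lower. The called genes split into 2782 higher and 3137 lower, and with upper-quartile in place of TMM factors into 3622 higher and 2379 lower. MAARS itself (Gm14461) lay lower in all 4 knockdown libraries, with 13.1 ± 1.36 CPM (SD, n = 4) in the controls and 6.81 ± 0.844 CPM (SD, n = 4) after knockdown. The pan-macrophage markers, which include Adgre1 (F4/80), Csf1r, Cd68 and Lyz2, were all detected, and their summed level ran from 15162 to 18375 CPM in the controls and from 17858 to 21097 CPM after knockdown.

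The promoters of the members that changed are shown first, because the later results turn on these genes. Promoter sequence of 250 bases before the annotated start came from RefSeq (GRCm38.p6) and was matched for 7 of the 8 members, with 9 windows in all because F13a1 and Folr2 have a second start. The sequences below are written 5′ to 3′ on the strand of the gene. Capitals mark matches to GAGGAAG, a core that the myeloid factor PU.1 recognises, or to TGANTCA. The latter pattern includes the AP-1 core TGACTCA but is wider than it. The windows are chr13:37050245-37050494 (minus strand) for F13a1, chr11:120732022-120732271 (minus strand) for Cbr2, chr8:56294302-56294551 (plus strand) for Hpgd and chr17:48346151-48346400 (plus strand) for Trem2.
F13a1: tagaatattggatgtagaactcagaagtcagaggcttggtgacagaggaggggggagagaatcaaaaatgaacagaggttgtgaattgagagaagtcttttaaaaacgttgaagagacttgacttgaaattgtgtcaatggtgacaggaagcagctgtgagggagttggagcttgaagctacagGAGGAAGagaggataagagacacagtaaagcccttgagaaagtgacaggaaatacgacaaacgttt
Cbr2: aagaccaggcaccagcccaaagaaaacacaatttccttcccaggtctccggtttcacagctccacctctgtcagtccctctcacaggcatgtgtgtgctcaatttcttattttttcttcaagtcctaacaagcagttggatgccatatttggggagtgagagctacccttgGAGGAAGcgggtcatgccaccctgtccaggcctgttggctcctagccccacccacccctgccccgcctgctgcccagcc
Hpgd: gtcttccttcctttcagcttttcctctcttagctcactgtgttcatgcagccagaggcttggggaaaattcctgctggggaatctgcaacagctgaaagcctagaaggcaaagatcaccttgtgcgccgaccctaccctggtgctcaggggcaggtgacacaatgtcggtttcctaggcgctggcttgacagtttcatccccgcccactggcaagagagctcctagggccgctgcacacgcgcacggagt
Trem2: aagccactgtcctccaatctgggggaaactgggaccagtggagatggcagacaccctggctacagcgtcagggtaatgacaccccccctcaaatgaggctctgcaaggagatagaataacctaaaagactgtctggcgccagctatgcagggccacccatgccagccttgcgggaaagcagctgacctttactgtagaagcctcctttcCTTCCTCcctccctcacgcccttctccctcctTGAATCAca

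Both strands were searched for these patterns and for the TATA box TATAAA and the E-box TCACGTG that MITF and TFE factors read. The MAF half-site TGCTGAC and the C/EBP core TTGCNNAA were searched for as well. GAGGAAG was present 66 bases before the start of F13a1, 79 before that of Cbr2 and, on the opposite strand as CTTCCTC, 41 before that of Trem2. It was present in 10.6% of all 32817 promoter windows of the same length. TGANTCA was found 9 bases before the start of Trem2 as TGAATCA, which is not the AP-1 core. It was found 74 bases before the second start of Folr2 as TGACTCA, which is. With any base at N it was present in 6.75% of all windows. The marked matches did not overlap each other. None of the letters searched was found in the windows of Hpgd, Gpnmb or Vsig4, in the first window of Folr2 or in the second of F13a1. The remaining motifs occurred in 12.4% (TATAAA), 3.13% (TCACGTG), 3.81% (TGCTGAC) and 9.57% (TTGCNNAA) of all windows and in none of the members' windows. Hpgd and Gpnmb have RefSeq starts that lie before those of their GENCODE M21 genes. The Cbr2 window begins at 120732022, whereas the GENCODE gene, on the minus strand, reaches 120732114. Its GAGGAAG therefore lies within the GENCODE gene. The first Folr2 window begins at 101857191 and also reaches into its GENCODE gene, which extends to 101857194. The second windows of Folr2 (101845332-101845581) and F13a1 (37049214-37049463) lie wholly within their GENCODE genes. The TGACTCA of Folr2 is therefore inside the gene. A match describes letters in a window and is not evidence of a bound site.

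Hpgd, F13a1 and Cbr2, which encode the 3 enzymes of the set, were higher after MAARS knockdown, and Trem2 was slightly lower. Folr2 and Gpnmb did not pass the threshold, and Vsig4 and Lyve1 had too few counts to be tested. The test was the quasi-likelihood F-test of edgeR, with p-values adjusted by the Benjamini-Hochberg method across the 13051 genes, of which 45.4% were called, so 4 calls among the 6 members tested is read against that background. Only Hpgd and F13a1 passed the stricter rule of an adjusted p under 0.05 with a log2 fold change of at least 1.5, which 67 genes, or 0.513% of those tested, passed in the upward direction. In bulk RNA, a change in the share of cells that carry a transcript and a change in its amount per cell cannot be told apart.

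**Figure D1:**
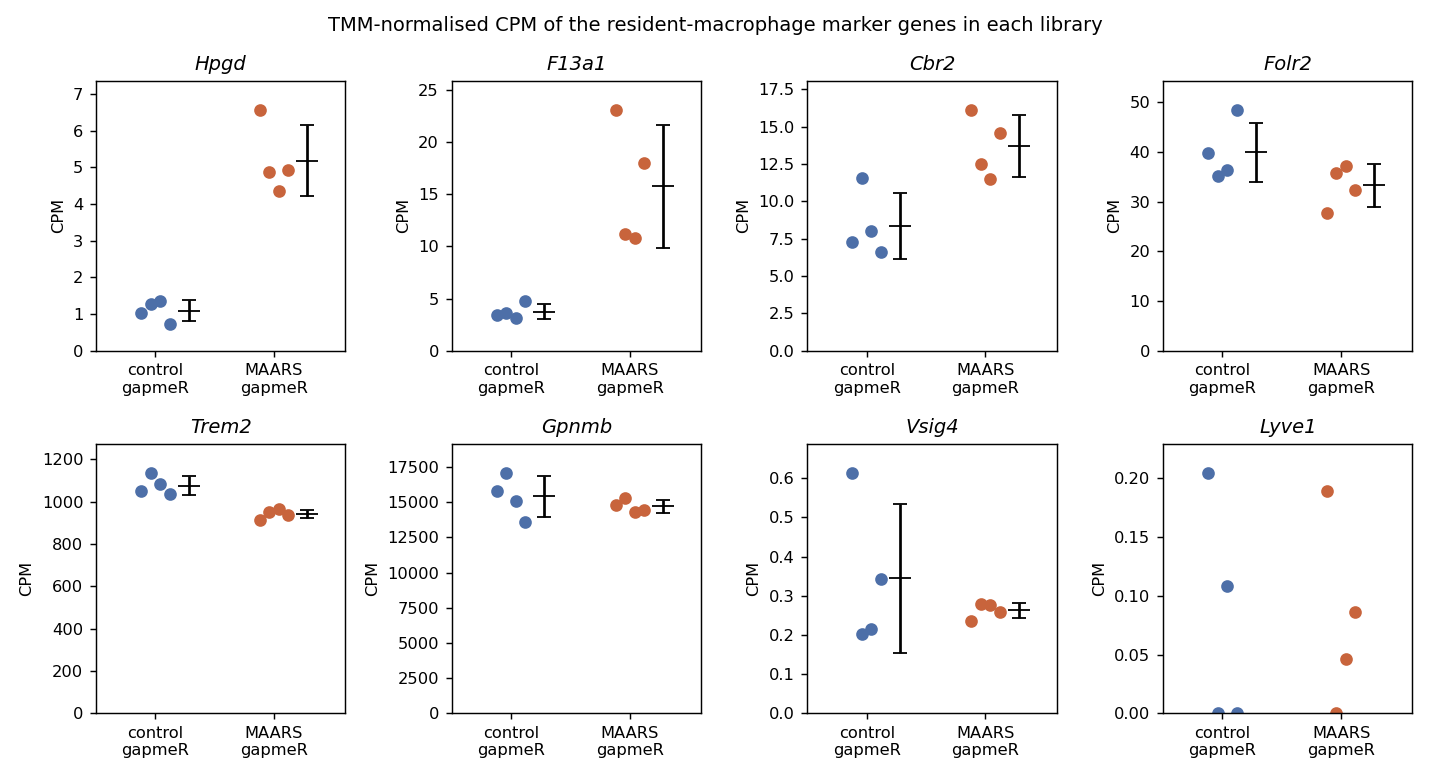
Each panel plots the TMM-normalised CPM of 1 gene (vertical axis, from 0) in the 4 control gapmeR and 4 MAARS gapmeR libraries. Points are libraries and black bars are the mean and SD, left out for Lyve1, which had no counts in some libraries. The groups are apart for Hpgd, F13a1 and Trem2 and overlap for the other genes.

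Hpgd (ENSMUSG00000031613), at chr8:56294585-56321043 (plus strand, GRCm38), showed the largest fold change of the members. Taking the control libraries in the order 2, 5, 6 and 7, it had 20, 25, 25 and 15 counts, and the knockdown libraries 9, 11, 13 and 15 had 139, 123, 95 and 114 counts. Normalised, these were 1.02, 1.27, 1.35 and 0.736 CPM with control gapmeR and 6.57, 4.89, 4.36 and 4.94 CPM with MAARS gapmeR. Every knockdown library lay more than 3 CPM above the highest control, and replicate 9 was the highest of all. Hpgd rose by a log2 fold change of 2.24 (standard error 0.21, edgeR adjusted p = 1.27e-05), a 4.73-fold increase with a 95% confidence interval of 3.43 to 6.51. Only 7 of the 13051 genes tested had a higher log2 fold change. The two-sided exact permutation test over all 70 ways of dividing the libraries gave p = 0.0286, the smallest p that 4 against 4 allow. The control level remained low, with 85 counts in the 4 control libraries together, and no other gene overlaps its exons.

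F13a1 (ENSMUSG00000039109), at chr13:36867178-37050244 (minus strand), rose to a similar extent but with more spread. Its counts were 67, 70, 58 and 98 in the controls and 488, 282, 235 and 415 after knockdown, in the same order of replicates. This corresponded to 3.43, 3.56, 3.13 and 4.81 CPM against 23.1, 11.2, 10.8 and 18.0 CPM. The groups did not overlap, although the knockdown libraries fell into a higher pair, replicates 9 and 15, and a lower pair, replicates 11 and 13, with a coefficient of variation of 37.3% against 19.8% in the controls. The log2 fold change was 2.07 (standard error 0.255, edgeR adjusted p = 7.49e-05), a 4.19-fold increase with a 95% confidence interval of 2.85 to 6.18, and 10 genes of all those tested had a higher one. The exact permutation test again gave p = 0.0286. F13a1 is also a product of megakaryocytes and platelets, and the summed level of 8 markers of those cells ran from 36.5 to 65.2 CPM in the controls and from 73.8 to 135 CPM after knockdown. Most of that sum was Vwf, which endothelium also makes. Of these markers 4 were tested, and 2 were higher: Vwf, with 45.2 ± 15.2 and 92.3 ± 26.9 CPM (SD, n = 4 each, edgeR adjusted p = 0.00421), and Ppbp, with 1.04 ± 0.394 and 2.05 ± 0.279 CPM (SD, n = 4 each, edgeR adjusted p = 0.0106). Itga2b, with 1.22 ± 0.96 and 1.20 ± 0.309 CPM (SD, n = 4 each, edgeR adjusted p = 0.956), and Gp1ba, with 0.626 ± 0.352 and 0.723 ± 0.0376 CPM (SD, n = 4 each, edgeR adjusted p = 0.682), were not called. The platelet glycoprotein transcripts Gp9 and Gp1bb averaged under 1 CPM in both groups, and the part of such cells in the F13a1 result was not tested.

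Cbr2 (ENSMUSG00000025150), at chr11:120729489-120732114 (minus strand), was higher by a smaller factor. Its counts were 142, 227, 148 and 135 in the controls and 341, 315, 250 and 337 after knockdown. The controls had 7.26, 11.6, 8.0 and 6.62 CPM and the knockdown libraries 16.1, 12.5, 11.5 and 14.6 CPM. Control replicate 5 lay just above MAARS gapmeR replicate 13, so the groups overlapped, and the exact permutation test gave p = 0.0571. In the fit across all genes Cbr2 rose by a log2 fold change of 0.71 (standard error 0.167, edgeR adjusted p = 0.00519), a 1.63-fold increase with a 95% confidence interval of 1.27 to 2.11. Among the knockdown libraries replicate 9 was the highest for Cbr2, as it was for Hpgd and F13a1, and replicate 13 was the lowest for all 3 genes.

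Trem2 (ENSMUSG00000023992), at chr17:48346401-48354147 (plus strand), was abundant and little changed in size. It had 1048, 1137, 1081 and 1034 CPM in the controls and 915, 949, 963 and 937 CPM after knockdown. All knockdown libraries lay below all controls (exact permutation test, p = 0.0286), and the spread within a group was small, with coefficients of variation of 4.27% and 2.16%. Trem2 fell by 0.19 on the log2 scale (standard error 0.0469, edgeR adjusted p = 0.00626), a change of -12.5% with the fold between 0.815 and 0.94 at 95% confidence. Each library held between 19368 and 23875 counts of Trem2. Non-overlapping groups were common in these data, at 42.1% of all genes tested in either direction, and occurred in 3 of the 6 members tested.

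Gpnmb (ENSMUSG00000029816), at chr6:49036546-49070929 (plus strand), was the most abundant member. It took between 1.36% and 1.63% of all counts in the control libraries and between 1.46% and 1.57% in the knockdown libraries, and ranked 3 among all genes by counts in both groups. Its level was 15834, 17107, 15105 and 13608 CPM in the controls and 14773, 15315, 14277 and 14460 CPM after knockdown. The control values spanned the whole range of the knockdown values. The log2 fold change was -0.07 (standard error 0.0737, edgeR adjusted p = 0.481) with a 95% confidence interval from -0.23 to 0.09, so a change outside 0.853-fold to 1.07-fold lies beyond the interval.

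Folr2 (ENSMUSG00000032725), at chr7:101839988-101857194 (minus strand), lay between these genes in level. It had 39.7, 35.2, 36.4 and 48.5 CPM in the controls and 27.7, 35.8, 37.3 and 32.4 CPM after knockdown. MAARS gapmeR replicates 11 and 13 fell inside the control range, and the other two knockdown libraries fell below it. The log2 fold change was -0.26 (standard error 0.112, edgeR adjusted p = 0.0755; exact permutation test, p = 0.143), with a 95% confidence interval from -0.51 to -0.02. It passed an adjusted p under 0.05 in 3 of 15 alternative fits, 1 of them the fit without control replicate 5 (log2 fold change -0.33, edgeR adjusted p = 0.0455). Without control replicate 7 the log2 fold change was -0.16 (edgeR adjusted p = 0.22), and without MAARS gapmeR replicate 9 it was -0.19 (edgeR adjusted p = 0.176). Of the exonic bases of Folr2, 63.1% overlap Gm10602 on the opposite strand, and the sources used here do not state whether reads were counted by strand. Gm10602 had 1.28 ± 0.339 CPM and 1.81 ± 0.213 CPM (SD, n = 4 each, edgeR adjusted p = 0.0934).

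Vsig4 (ENSMUSG00000044206), at chrX:96247203-96293438 (minus strand), was close to absent. Its counts were 12, 4, 4 and 7 in the controls and 5, 7, 6 and 6 after knockdown. The sums were 27 counts (exact Poisson 95% interval 17.8 to 39.3) and 24 counts (15.4 to 35.7), so the intervals overlapped widely. Lyve1 (ENSMUSG00000030787), at chr7:110850607-110863239 (minus strand), had 4, 0, 2 and 0 counts in the controls and 4, 0, 1 and 2 after knockdown. Its sums were 6 counts (2.2 to 13.1) and 7 counts (2.81 to 14.4), and the intervals cover counting error only. No difference was detected in either gene, and at this depth a small or moderate one could not have been seen. The defining marker of the Lyve1 class was thus at the floor of detection in both groups. Lyve1 is also made by lymphatic endothelium, whose regulator Prox1 averaged 0.0255 CPM in the controls and 0.102 CPM after knockdown, while the summed level of 10 endothelial markers was 24.1 to 29.6 CPM and 11.2 to 11.6 CPM. In that sum Kdr fell from 16.2 ± 1.79 to 5.59 ± 0.22 CPM and Flt4 from 4.55 ± 1.64 to 0.649 ± 0.313 CPM (SD, n = 4 each, edgeR adjusted p = 4.19e-06 and 0.000141), while Pecam1, Cdh5 and Pdpn were not called (edgeR adjusted p = 0.545, 0.121 and 0.225).

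**Figure D2:**
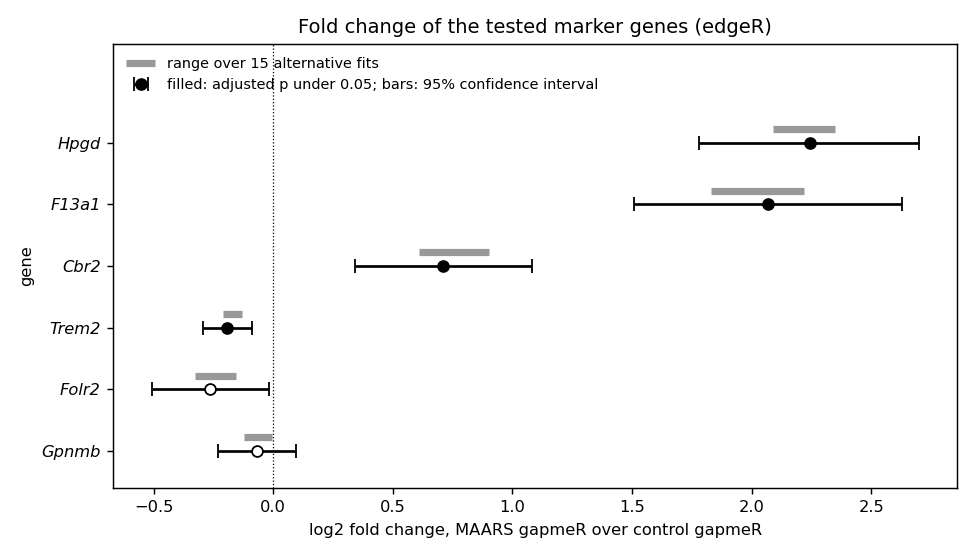
The horizontal axis is the log2 fold change of MAARS gapmeR over control gapmeR for the 6 members tested. Circles are edgeR estimates, filled at an adjusted p under 0.05, with 95% confidence intervals as black bars, and grey bars give the range over the 15 alternative fits. Hpgd at 2.24 and F13a1 at 2.07 lie apart from Cbr2 at 0.71, and Trem2, Folr2 and Gpnmb lie between -0.26 and -0.07.

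Compared per length, the members covered a wide range of levels. Expressed as RPKM, that is CPM divided by the exonic length in kilobases, the mean levels with control gapmeR ran from Gpnmb at 2366 through Trem2 at 217, Folr2 at 25.8, Cbr2 at 6.30, Hpgd at 0.651, F13a1 at 0.554 and Vsig4 at 0.232 to Lyve1 at 0.0268. After MAARS knockdown the order was the same, with 2258, 190, 21.5, 10.3, 3.08, 2.34, 0.177 and 0.0275 RPKM. The library ranges of the neighbours Hpgd and F13a1 overlapped in both groups. Compared within a library, Hpgd lay above F13a1 in every knockdown library. The same held in the controls except replicate 7, with 0.4373 RPKM of Hpgd and 0.7135 RPKM of F13a1. All other neighbours in the order were apart in both groups. The RPKM ratio of Gpnmb to Trem2 was 11.5, 11.4, 10.6 and 9.99 in the controls and 12.3, 12.3, 11.3 and 11.7 after knockdown, and these ranges overlapped.

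**Figure D3:**
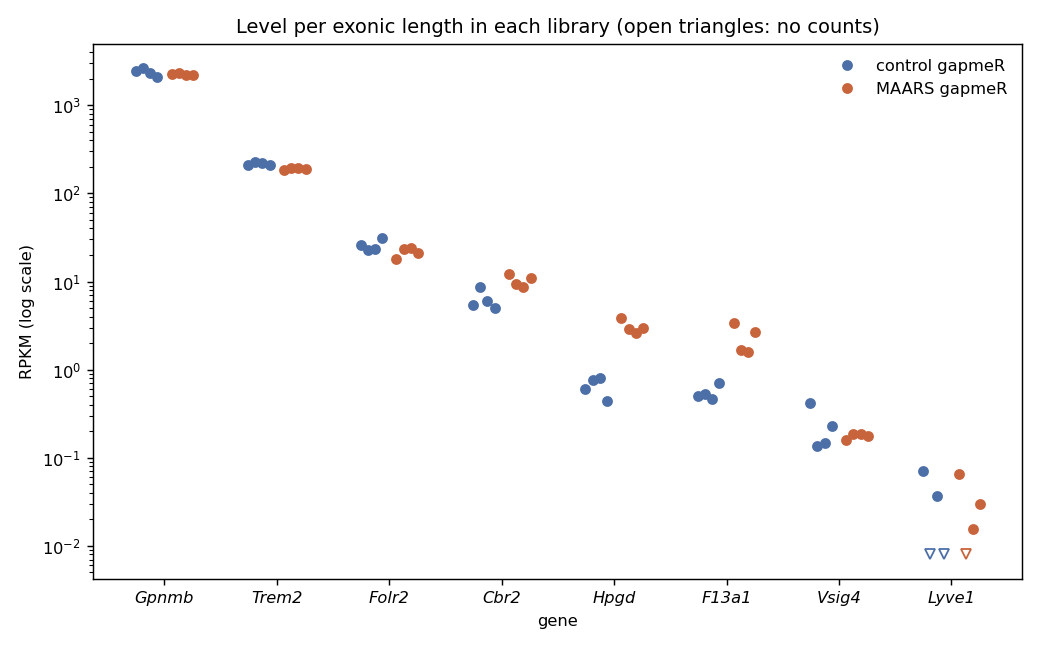
The vertical axis is RPKM on a log scale, and each point is 1 library, with control gapmeR and MAARS gapmeR side by side for each gene. Open triangles at the lower edge are Lyve1 libraries with no counts. The order from Gpnmb to Lyve1 is the same in both groups.

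The ratios between members describe how unequally they moved. The mean log2 ratio of F13a1 to Hpgd in CPM was 1.79 in the controls and 1.54 after knockdown, and the groups overlapped. That of F13a1 to Cbr2 moved from -1.15 to 0.142 and that of Cbr2 to Hpgd from 2.94 to 1.40, in both cases with no overlap between the groups. The ratio of Trem2 to Gpnmb was -3.84 and -3.97 on this scale, with overlap. Cbr2 therefore moved less than the other two enzymes, while the difference between Trem2 and Gpnmb did not exceed the spread of the libraries. Over the 6 members tested the median log2 fold change was 0.32, and over all genes tested it was 0.01.

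**Figure D4:**
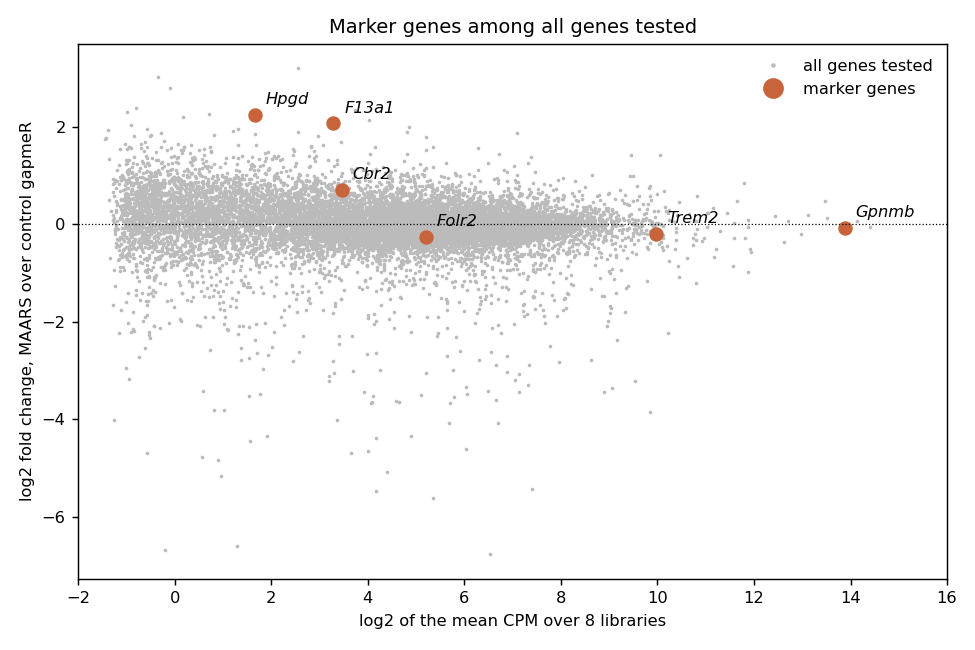
Each grey point is 1 of the 13051 genes tested, with the log2 of its mean CPM over the 8 libraries on the horizontal axis and its log2 fold change on the vertical axis. Coloured points are the 6 members tested. Hpgd and F13a1 sit near the upper edge at low to moderate level, and Gpnmb sits at the far right near 0.

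The genes whose profile over the 8 libraries was most like that of each member were named by the smallest root-mean-square difference of log2 CPM taken relative to the control mean. For Hpgd, the lipid transporter gene Abca9 was among them (difference 0.213). For F13a1 they were Sema6d (0.197) and the haemoglobin scavenger receptor gene Cd163 (0.287), and for Cbr2 Slc46a3 (0.104) and Gm1976 (0.105). Trem2 was followed closest by Hspa8 (0.0198) and Dcaf13 (0.0243), Gpnmb by Mrtfa (0.0198) and Syngr1 (0.0302), and Folr2 by Tex10 (0.085) and Alkbh4 (0.0881). Cd163 had 6.01 ± 0.883 CPM in the controls and 26.4 ± 6.34 CPM after knockdown (SD, n = 4 each). These values describe 8 libraries and nothing of shared function.

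The nearest genes on each side of the members were also examined. Next to F13a1, at a distance of 294963 bp, Ly86 fell by 0.92 on the log2 scale (edgeR adjusted p = 1.87e-05). Dcxr and Hmga1b flank Cbr2, and Dcxr had a log2 fold change of -0.11 (edgeR adjusted p = 0.105), whereas Hmga1b fell by 0.50 (edgeR adjusted p = 5.23e-05). B430306N03Rik, 19376 bp before Trem2, fell by 1.02 (edgeR adjusted p = 4.43e-05), and Treml1 on the other side had 0.25 (edgeR adjusted p = 0.373). Folr1, the paralogue next to Folr2, had 0.526 ± 0.197 and 0.695 ± 0.143 CPM (SD, n = 4 each, edgeR adjusted p = 0.332), and Inppl1 on its other side had -0.12 (edgeR adjusted p = 0.0891). The processed pseudogene Gm19253, 700 bp after Gpnmb, had a log2 fold change of 0.32 (edgeR adjusted p = 0.0384), which passed in 9 of 15 alternative fits. F630028O10Rik beside Vsig4 rose by 0.35 (edgeR adjusted p = 0.0151), Rnf141 beside Lyve1 had -0.09 (edgeR adjusted p = 0.208), and the genes on both sides of Hpgd had no counts.

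Around Hpgd, 15 genes of prostaglandin synthesis, transport, breakdown and reception were tested, and 3 were higher and 3 lower. That is 40.0% called, a share near the 45.4% of all genes tested. Ptgs1, the constitutive cyclooxygenase gene, rose by 1.08, the exporter gene Abcc4 by 0.75 and Ptgr1, which acts on the product of HPGD, by 0.42, while Pla2g4a, Ptger4 and Ptges2 had -0.82, -0.79 and -0.42 (edgeR adjusted p of 0.00177 or less for each). The importer gene Slco2a1 had 1.49 ± 0.817 and 2.81 ± 1.14 CPM (SD, n = 4 each, edgeR adjusted p = 0.0605), and the inducible Ptgs2 had 2.58 ± 0.961 and 2.75 ± 0.815 CPM (SD, n = 4 each, edgeR adjusted p = 0.817). For F13a1, the carrier subunit gene F13b had no counts, and of 2 other transglutaminases tested Tgm1 was lower (log2 fold change -0.78, edgeR adjusted p = 0.00611) and Tgm2, with 277 ± 21.6 and 256 ± 56.4 CPM (SD, n = 4 each), was not called (edgeR adjusted p = 0.468). Of 4 further carbonyl and xylulose reductase genes beside Cbr2, Cbr3 rose by 0.48 and Cbr4 by 0.26, Cbr1 had -0.09 (edgeR adjusted p = 0.217), and Dcxr, given above, was not called.

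For the receptors, the TREM2 signalling partners moved by small steps. Of all genes tested 45.4% were called, 21.3% higher and 24.0% lower, and the counts in this paragraph are read against those shares. Of 8 partners and sheddases tested, 4 were higher and 1 lower. Syk, the kinase recruited by TYROBP, rose from 373 ± 21.3 to 528 ± 19.2 CPM (SD, n = 4 each, log2 fold change 0.50, edgeR adjusted p = 2.17e-05), and Adam10, a protease that sheds TREM2, rose by 0.20. Inpp5d and Hcst were higher by 0.16 and 0.25, the latter in 8 of 15 alternative fits, and Ptk2b fell by 0.31. Tyrobp itself had 839 ± 54.9 and 769 ± 27.5 CPM (SD, n = 4 each, edgeR adjusted p = 0.081), and Plcg2 and Adam17 were not called either (log2 fold changes of -0.12 and 0.10). A list of 5 further Trem and Treml genes and 2 CD300 receptor genes was tested beside Trem2, with 4 of 7 lower and 1 higher. Of the 5 Trem and Treml genes 3 were lower and 0 higher. Treml2 fell from 33.6 ± 7.99 to 4.20 ± 1.81 CPM (SD, n = 4 each, log2 fold change -2.98, edgeR adjusted p = 8.42e-06), a change of another size than the -0.19 of Trem2. Trem1 and Treml4 fell by 1.25 and 0.69 on the log2 scale, and Trem3 had -0.66 (edgeR adjusted p = 0.107). Of the CD300 genes, Cd300lf fell by 1.74 and Cd300a rose by 0.58. Of the 6 genes tested around Gpnmb, Mitf was higher by 0.19 (edgeR adjusted p = 0.043, called in 9 of 15 alternative fits), and the related factors Tfeb, Tfe3 and Tfec, with 0.06, -0.03 and -0.05, were not called. None of the 7 folate uptake genes tested with Folr2 was called by edgeR or DESeq2. By edgeR 1 of these, the hydrolase gene Ggh, had an unadjusted p under 0.05, and it was called with upper-quartile factors and with 1 surrogate variable. Of 8 genes tested around Vsig4, 3 were higher and 2 lower, with the ligand gene C3 at -1.76 and C3ar1 at -0.40, and with the B7 relative Vsir at 0.60, Vsig10 at 0.65 and the complement receptor chain Itgam at 0.18. Of the exonic bases of Itgam, 68.7% overlap Gm49368 on the same strand. Of the 9 hyaluronan genes tested with Lyve1, 3 were higher and 2 lower, and 3 and 0 with upper-quartile factors. Among these Stab2 rose by 0.73, Hmmr by 1.16 and Cd44 by 0.37. The hyaluronidase genes Hyal1 and Hyal2 had -0.32 and -0.23, called in 8 and 12 of 15 alternative fits. In Hyal1, 51.9% of the exonic bases overlap Hyal3 and Naa80 on the same strand.

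Wider lists place the members among other macrophage genes. They were chosen with earlier results of these data known, so the shares given are not a test of the lists. Of 30 further genes listed for Lyve1-type resident macrophages, 24 were tested, and 17 were higher and 3 lower (median log2 fold change 0.59), against 21.3% higher and 24.0% lower of all genes. Marco, Stab1, Colec12 and Mrc1, all receptors for scavenged ligands, rose by 1.59, 1.43, 1.04 and 0.79, whereas C4b and Cd38 were among those lower and fell by 2.97 and 1.16 on the log2 scale. Timd4, Mgl2 and the Cd209 genes of the list were not tested because of low counts, as were Lyve1 and Vsig4. Of 23 tested lipid-associated macrophage genes, the class that Trem2 and Gpnmb mark, 6 were higher and 10 lower, with Abca1 at 0.79, Cd36 at 0.57, Atp6v0d2 at 0.46 and Itgax at 0.34 and, in the other direction, Fabp5 at -0.50, Abcg1 at -0.61, Axl at -1.23 and Cst7 at -1.91. Of 15 recruited-monocyte genes 1 was higher and 9 lower (median -0.63), including F10 at -1.24, Cd52 at -1.47, Plac8 at -2.24 and Ms4a4c at -5.43, with S100a4 at 0.72 as the higher gene. Lists for other tissue macrophages gave 2 higher and 3 lower of 11 for Kupffer cells, 2 and 2 of 10 for microglia, 1 and 0 of 7 for peritoneal, 0 and 1 of 5 for alveolar and 1 and 2 of 7 for red pulp macrophages, and the Kupffer cell lectin gene Clec4f had no counts. Of 20 lineage regulators, 3 were higher and 8 lower, or 5 and 6 with upper-quartile factors, with Maf at 0.49 and with Klf4, Nr1h3 and Spi1 at -1.04, -0.71 and -0.39. The pan-macrophage markers, 12 in all, gave 5 higher and 6 lower, so these also moved both ways.

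**Figure D5:**
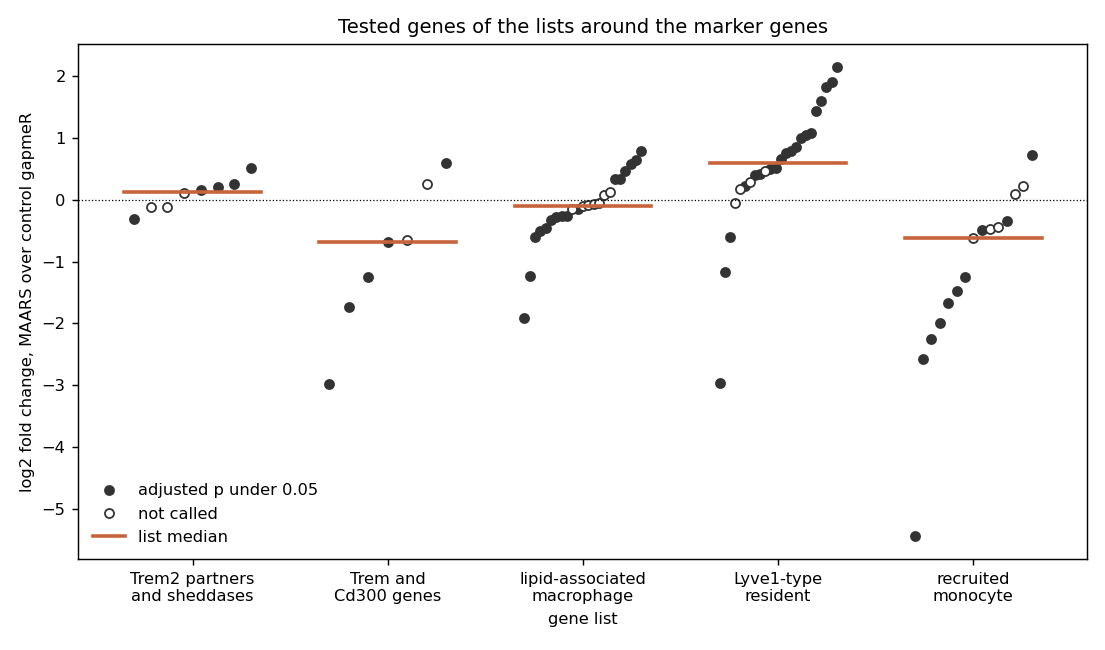
The vertical axis is the log2 fold change of MAARS gapmeR over control gapmeR, and each circle is a tested gene of the list named below it, filled at an adjusted p under 0.05 (edgeR). The coloured line is the list median, 0.59 for the Lyve1-type list and -0.63 for the recruited-monocyte list.

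Markers of other cells ranged widely in level, and the fibroblast and stromal sum, the highest, reached the level of Trem2. Summed over each list, fibroblast and stromal markers ran from 465 to 1061 CPM in the controls and from 730 to 1250 CPM after knockdown, neutrophil markers from 102 to 299 and from 105 to 168 CPM, osteoclast markers from 101 to 127 and from 93.8 to 99.0 CPM, and T cell markers, of which Cd4 made up most, from 65.9 to 85.6 and from 40.7 to 51.6 CPM. B cell, dendritic cell, mast cell and erythroid markers stayed under 4 CPM in every library. Melanocyte markers, relevant because Gpnmb is also a melanocyte gene, did not exceed 0.054 CPM in any library, with Dct, Tyrp1 and Sox10 at 0, while Gpnmb was at 13608 CPM or more in every library. The part of the other cells in the results for the members was not tested.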

How the data were processed

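The deposited values are raw counts per gene made by the authors, who trimmed the reads (Trimmomatic 0.36), aligned them with STAR 2.5.2b to GRCm38 with Ensembl transcripts and counted them with featureCounts (Subread 1.5.2), with versions from the submitters' processing notes. Neither the strand setting nor the handling of reads that map to several places is given in the sources used here. Libraries held 19287279 to 24541205 counts, and no pair of replicates agreed within sampling noise (chi-square per gene 4.24 to 15.1).

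Low-count genes were removed by filterByExpr (min.count 10, min.total.count 15), and the rest were scaled with TMM factors (0.955 to 1.03) and tested with glmQLFit and glmQLFTest of edgeR 4.0.16 in R 4.3.3, with Benjamini-Hochberg adjustment. The standard error of a log2 fold change was derived from its F statistic. Exact permutation tests used log2 CPM with a pseudocount of 0.01. The procedure was tested on simulated counts. Alternatives used limma 3.58.1 (limma-voom), DESeq2 1.42.0 and sva 3.50.0, other scaling factors and filters, and each library left out. Positions and lengths came from GENCODE M21 (99.47% of genes found).

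The members, the lists around them and the tests were chosen with earlier results of these data known. Besides the members, the genes named are those of the partner lists, up to 4 genes with the smallest p per direction of each wider list, marker genes, the nearest genes on each side and the 2 genes most alike in profile, and the rest are given as counts. Some genes that this rule names are not reported here.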

Additional observations from a re-analysis of the deposited data

Results flagged for a closer look

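In 220 groups of 4 CPM values, those of the 8 members, of MAARS and of the other genes named, each group was searched for a library that stood far from the other 3. No member was flagged, nor was MAARS. A library stood apart in 11 groups, or 5.0%, where chance gives about 1 in 20. Control replicate 7 had 202 CPM of Adam10 against 234 to 235 CPM in the other control libraries, and 2.65 CPM of Itga2b against 0.594 to 0.865. Control replicate 5 had 30.4 CPM of Hyal1 against 35.2 to 35.9 and 1.94 CPM of Pdpn against 2.43 to 2.46, and control replicate 6 had 17.0 CPM of Marco against 21.5 to 21.6. MAARS gapmeR replicate 9 had 796 CPM of Maf against 688 to 697 and 74.9 CPM of S100a4 against 61.5 to 62.9. MAARS gapmeR replicate 13 had 4.50 CPM of Slco2a1 against 1.98 to 2.39. MAARS gapmeR replicate 15 had 340 CPM of Tgm2 against 222 to 232, 26.0 CPM of Cbr1 against 29.3 to 29.9 and 0.520 CPM of C4b against 0.851 to 0.918.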

How the results depend on the processing

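Hpgd, F13a1, Cbr2, Trem2 and MAARS kept their direction and an adjusted p under 0.05 in all 15 alternative fits, and Gpnmb stayed above 0.05 in all of them. Trem2 changed least with upper-quartile factors, by -0.129 on the log2 scale (edgeR adjusted p = 0.0342). The number of members called was 4, and 4 or 5 in every alternative fit. It was 2 when a log2 fold change of at least 1.5 in size was also required, and the cause is that Cbr2 and Trem2 lie under that size. Folr2 gained a call in 3 fits, with a log2 fold change of -0.267 without a filter on low counts (edgeR adjusted p = 0.0213), -0.252 with 1 surrogate variable (edgeR adjusted p = 0.00613) and -0.326 without control replicate 5 (edgeR adjusted p = 0.0455), and the cause was not tested. With each library left out, the log2 fold change ran from 2.09 to 2.35 for Hpgd, from 1.83 to 2.22 for F13a1, from 0.609 to 0.901 for Cbr2, from -0.211 to -0.17 for Trem2, from -0.326 to -0.157 for Folr2 and from -0.124 to -0.020 for Gpnmb. With no filter Vsig4 had -0.389 (edgeR adjusted p = 0.637) and Lyve1 had 0.00906 (edgeR adjusted p = 0.996). The Lyve1 value rests on 6 control and 7 knockdown counts, too few for a usable fold change. The list counts for Lyve1-type genes, Trem and CD300 genes and recruited-monocyte genes, whose alternatives were chosen after seeing the data, stayed within 1 gene of the values given. Of 101 other genes named, 74 were called, 68 of them in every alternative fit, and no called gene changed sign. No paired analysis was possible because the 2 groups share no replicate numbers. Depth limits Vsig4 and Lyve1, and it limits the precision of Hpgd in the controls.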
